A study of Homo sapiens with 6 samples.

Results

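The Dickkopf genes and their Wnt co-receptors were followed in A673 cells, an Ewing sarcoma cell line driven by the EWS/FLI1 fusion protein, with and without expression of the lysyl oxidase propeptide (LOX-PP). The members were the 8 genes DKK1, DKK2, DKK3, DKK4, KREMEN1, KREMEN2, LRP5 and LRP6, found through the RefSeq transcript accession of each probe, out of 20503 genes that could be named in this way. They had 11 probes, each printed once per array. RNA from 3 cultures of A673/TR/empty and 3 of A673/TR/LOX-PP was hybridised to 6 Agilent 1-colour arrays. Both lines carried the tetracycline repressor (TR) and a lentiviral vector, which held the LOX-PP cDNA in one and no LOX cDNA in the other. Such lines were selected with zeocin as stable clones, and which clone or population went on the arrays is not given, so that the cDNA and the cell population cannot be told apart. Doxycycline was given for 72 h to induce LOX-PP. The labels attach this treatment, at 1 µM, to all 6 samples, while the paper states it plainly only for A673/TR/LOX-PP and gives 1 µg/ml where it names a dose, so that neither the dose nor the treatment of the controls is settled.

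Canonical Wnt signalling starts when a Wnt protein joins a Frizzled receptor and the co-receptor LRP5 or LRP6, after which beta-catenin escapes degradation and acts with TCF/LEF factors on target genes. DKK1, DKK2 and DKK4 are secreted proteins that bind LRP5 and LRP6, and the transmembrane proteins KREMEN1 and KREMEN2 bind DKK1 and DKK2 and help to remove the co-receptor from the cell surface. DKK3 is the divergent member of the family and does not share this co-receptor binding. DKK1 is known as a gene repressed by EWS/FLI1 in Ewing sarcoma cells, and DKK2 as one expressed by these tumours.

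All values below are log2 signal over the 75th percentile of the array, and a probe is called detected where the extraction software marked it as well above background. Between 56.9% and 74.8% of the gene spots were detected on each array, and no gene spot was saturated. The first A673/TR/LOX-PP replicate had a slide and a scan day to itself, and the other 5 arrays shared both. The only LOX probe averaged 0.13 ± 0.22 (SD, n = 3) in A673/TR/empty and -0.70 ± 0.58 (SD, n = 3) in A673/TR/LOX-PP, and thus gave no higher signal in the induced cells. Whether it lies within the propeptide cDNA is not given, and the groups are therefore those of the labels. All 8 Ewing sarcoma markers, among them CD99, NKX2-2 and NR0B1, were detected on 6 of 6 arrays. Over all 32647 tested probes the median difference between the groups was 0.13, compared with -0.03 under quantile normalization, and each difference below is A673/TR/LOX-PP minus A673/TR/empty less that median. The p values test the difference before the median was taken off, and not the printed one. For the DKK3 probe A_33_P3261293 the tested difference was 0.00083 and the printed one is -0.13. Each alternative takes off its own median, so that a sign near 0 can turn through the median alone. In bulk RNA, fewer cells of a type and less RNA per cell cannot be told apart.

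DKK1 was the only one of the 8 genes that passed the test, and it was lower in A673/TR/LOX-PP. Its probe read -1.74, -1.23 and -2.82 in replicates 1, 2 and 3 of A673/TR/empty and was detected in each. In A673/TR/LOX-PP it read -6.75, -4.45 and -5.01 and was not detected in any, so that it met the filter of 3 detected arrays only through the group where it was high. Every control array lay above every LOX-PP array, and the gap between the groups was 1.63. Before scaling, the corrected intensity of this probe was 2295, 2679 and 879 in A673/TR/empty and 26.5, 287 and 103 in A673/TR/LOX-PP. The faintest probe called detected on these same LOX-PP arrays had 39.0, 483 and 155, and DKK1 lay under that signal on all 3.

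The difference of DKK1 was -3.60 ± 0.66 (SE, n = 3 per group) with a 95% interval from -5.17 to -2.03, and this was past the 0.05 set for p values adjusted by Benjamini-Hochberg over all tested probes (adjusted p = 0.0313, limma). Because the LOX-PP values are not above background, only an approximate bound can be given for the size. When each LOX-PP array was set to the faintest detected signal on it, DKK1 was 7.18-fold lower than in A673/TR/empty, before the median was taken off. This level is no strict limit of detection. On replicate 3 of A673/TR/LOX-PP, where it was 155, undetected probes of DKK3 and DKK4 had 169 and 164. The lowest control array still lay 0.88 above the highest of these levels. By its p value DKK1 stood at position 1273 among the 32647 probes.

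The call of DKK1 was lost when some single arrays were left out, while its difference stayed between -4.11 and -2.96. Without replicate 1 of A673/TR/empty the difference was -3.49 (adjusted p = 0.142, limma), without replicate 2 of A673/TR/empty -3.19 (adjusted p = 0.140, limma) and without replicate 3 of A673/TR/LOX-PP -3.80 (adjusted p = 0.0736, limma). Over all probes the number past the threshold also fell, from 1849 to 407, 444 and 1037 without these same arrays in that order. Without replicate 1 of A673/TR/LOX-PP, that is, within the shared slide, the difference of DKK1 was -2.96 and passed (adjusted p = 0.0355, limma). With 1 common floor under all arrays this difference shrank to -1.83 (adjusted p = 0.100, limma), and with normexp background correction to -2.16 (adjusted p = 0.0674, limma). It did not pass in the methods' t-test after adjustment either (adjusted p = 0.140), nor with no filter on dim probes (-3.78, adjusted p = 0.104, limma), and it was not tested where all 6 arrays had to be detected. Over 15 alternatives the difference was negative throughout, from -4.11 to -1.83, and passed the threshold in 7. These are not 15 separate checks. Another centring and the authors' values gave the same -3.60, and the slide block the same -2.96 as leaving out replicate 1 of A673/TR/LOX-PP.

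**Figure D1:**
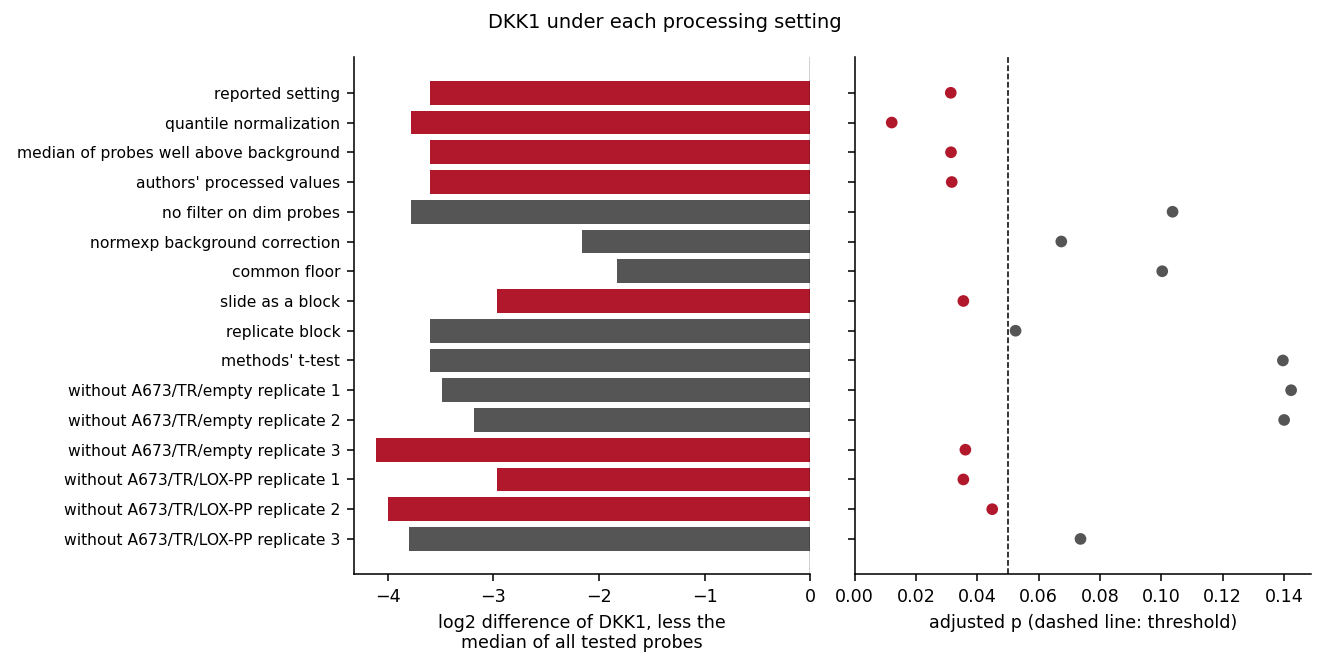
Left, log2 difference of DKK1 (A673/TR/LOX-PP minus A673/TR/empty, less the median of all tested probes) under the reported setting and 15 alternatives. Right, the adjusted p of each, with the threshold of 0.05 as a dashed line. Red marks settings that passed, and every bar points to lower DKK1, from -4.11 to -1.83, while the adjusted p ran from 0.0121 to 0.142.

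The promoter of DKK1 is shown because DKK1 is the member that passed the test in the main fit, beside that of LRP5, its target co-receptor, which did not pass. These were the 2 members whose sequence was taken from the RefSeq promoter table used (GRCh38.p14). The promoters of the other members were not examined. The 250 bases before each start site are printed 5′ to 3′ on the plus strand, DKK1 from chr10:52314031-52314280 and LRP5 from chr11:68312341-68312590. Capitals mark TATAAA, searched on the gene strand, and the TCF/LEF core CTTTGA or its reverse complement TCAAAG.
DKK1: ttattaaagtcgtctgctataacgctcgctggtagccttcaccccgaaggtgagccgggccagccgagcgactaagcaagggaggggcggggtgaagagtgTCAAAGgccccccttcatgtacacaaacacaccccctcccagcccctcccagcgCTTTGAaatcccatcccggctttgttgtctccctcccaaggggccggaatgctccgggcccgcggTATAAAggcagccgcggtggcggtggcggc
LRP5: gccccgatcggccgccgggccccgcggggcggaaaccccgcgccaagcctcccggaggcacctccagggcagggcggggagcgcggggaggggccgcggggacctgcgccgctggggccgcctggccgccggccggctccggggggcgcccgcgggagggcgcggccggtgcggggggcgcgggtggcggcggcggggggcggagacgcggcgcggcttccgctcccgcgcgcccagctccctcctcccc

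The DKK1 window holds TATAAA at 25 to 30 bases before the start, CTTTGA at 90 to 95 and TCAAAG at 144 to 149. Of the 35116 windows of this length in the table, 6.80% hold TATAAA, 11.2% hold the TCF/LEF core at least once and 0.977% hold it at least 2 times. The LRP5 window holds neither motif and has 87.2% G and C, compared with 62.8% for DKK1 and a median of 58.0% over all windows. A match of letters is a description and was not tied to binding here.

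DKK2 kept a strong signal in both lines. It read 2.33, 2.83 and 1.98 in A673/TR/empty and 1.74, 3.14 and 2.37 in A673/TR/LOX-PP, and was detected on every array. The groups overlapped, since both the lowest and the highest of the 6 values were from A673/TR/LOX-PP. The difference was -0.089 ± 0.41 (SE, n = 3 per group), with a 95% interval from -1.05 to 0.87, and did not pass (adjusted p = 0.971, limma). Its sign turned under quantile normalization, to 0.20.

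DKK3 was near background, and its 2 probes disagreed. The probe A_33_P3261293 read -4.25, -4.09 and -3.67 in A673/TR/empty and -4.80, -2.92 and -4.30 in A673/TR/LOX-PP, with the last array not detected. Its values overlapped fully, with a difference of -0.13 ± 0.48 (SE, n = 3 per group, adjusted p = 0.999, limma) that turned to 0.059 with normexp background correction. The probe A_24_P261417 read -2.57, -2.77 and -4.07 in A673/TR/empty and -4.41, -4.32 and -6.53 in A673/TR/LOX-PP, and was detected on 2 control arrays and 1 LOX-PP array. Its groups did not overlap, with a gap of 0.24. The difference of -2.08 ± 0.68 (SE, n = 3 per group) did not pass (adjusted p = 0.162, limma), but did with the replicate number as a block (adjusted p = 0.0423, limma). Both probes carry the same transcript accession, and their positions in it are not given.

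DKK4 was at the edge of detection. It read -4.49, -4.37 and -4.31 in A673/TR/empty, with the first 2 arrays detected, and -6.28, -3.39 and -4.35 in A673/TR/LOX-PP, where 1 array, replicate 2, was detected. The LOX-PP values lay below, within and above the range of the controls. The difference was -0.41 ± 0.67 (SE, n = 3 per group, adjusted p = 0.848, limma), and its 95% interval, from -2.00 to 1.18, allows a change of several-fold either way. Without replicate 1 of A673/TR/LOX-PP the difference was 0.36.

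**Figure D2:**
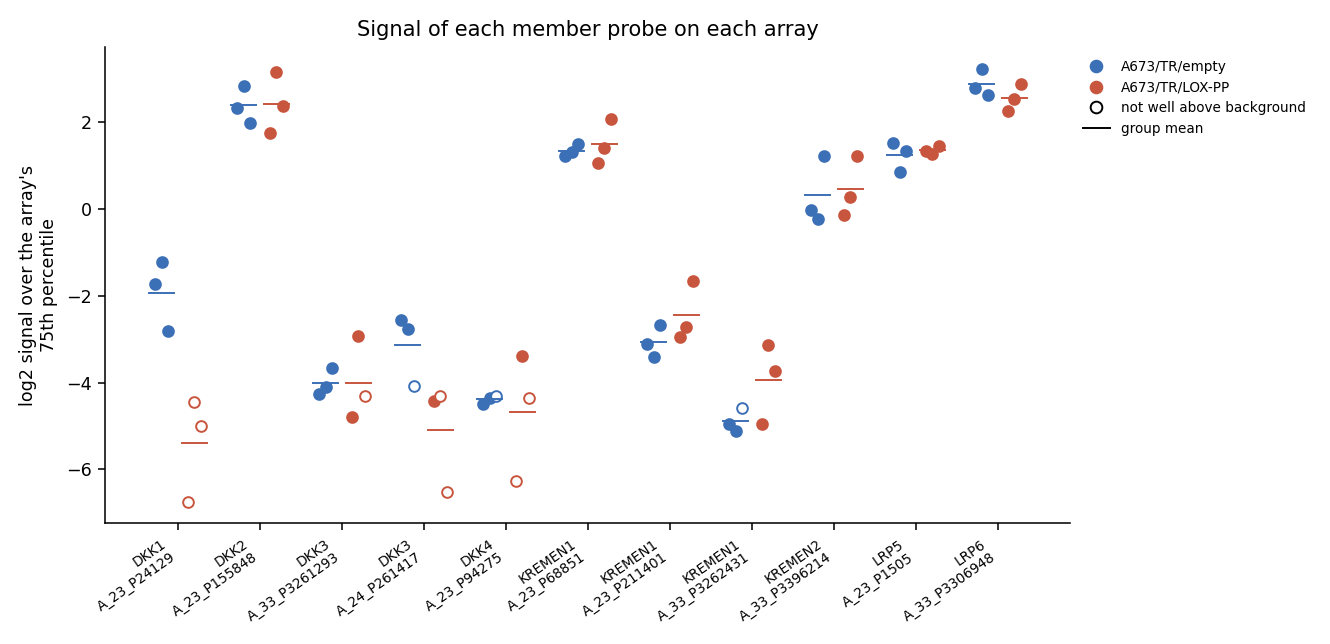
Log2 signal over the array's 75th percentile (vertical axis) of the 11 member probes (horizontal axis) on each of the 6 arrays, blue for A673/TR/empty and red for A673/TR/LOX-PP, with open circles for probes not well above background and a short line for each group mean. DKK1 is filled in all 3 control arrays and open in all 3 LOX-PP arrays, while the probes of DKK2, KREMEN2, LRP5 and LRP6 are filled and overlap, and the height of different probes cannot be compared.

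KREMEN1 has 3 probes, and none passed. The brightest, A_23_P68851, was detected on every array, with 1.21, 1.31 and 1.50 in A673/TR/empty and 1.05, 1.40 and 2.06 in A673/TR/LOX-PP. The LOX-PP values spread on both sides of the controls, and the difference was 0.039 ± 0.30 (SE, n = 3 per group), with a 95% interval from -0.67 to 0.75 and a sign that turned in 4 alternatives. The probe A_23_P211401, of the same transcript, read -3.11, -3.42 and -2.67 against -2.96, -2.73 and -1.65, a difference of 0.50 ± 0.40 (SE, n = 3 per group, adjusted p = 0.416, limma). The probe A_33_P3262431, of another KREMEN1 transcript, read -4.95, -5.12 and -4.59 against -4.96, -3.14 and -3.73. Its difference of 0.82 ± 0.46 (SE, n = 3 per group, adjusted p = 0.296, limma) rose to 1.29 without replicate 1 of A673/TR/LOX-PP and then passed (adjusted p = 0.0425, limma). This probe was detected on 2 of the 3 control arrays.

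KREMEN2 read -0.03, -0.23 and 1.21 in A673/TR/empty and -0.13, 0.28 and 1.21 in A673/TR/LOX-PP, all detected. In each line replicate 3 stood above the other 2 by about 1 log2 unit, and the groups overlapped almost completely. The difference was 0.012 ± 0.49 (SE, n = 3 per group), with a 95% interval from -1.16 to 1.18 (adjusted p = 0.903, limma), and its sign turned in 5 alternatives.

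The co-receptors LRP5 and LRP6, single-pass membrane proteins of the LDL receptor family, were detected on every array. LRP5 read 1.51, 0.85 and 1.33 in A673/TR/empty and 1.34, 1.26 and 1.45 in A673/TR/LOX-PP, so that all 3 LOX-PP values fell within the range of the controls. Its difference was -0.011 ± 0.24 (SE, n = 3 per group, adjusted p = 0.827, limma), with a sign that turned in 5 alternatives and the narrowest 95% interval of the 11 probes, from -0.59 to 0.57. LRP6 read 2.78, 3.22 and 2.62 in A673/TR/empty and 2.24, 2.53 and 2.88 in A673/TR/LOX-PP. It leaned lower with overlapping groups, with a difference of -0.45 ± 0.27 (SE, n = 3 per group) and a 95% interval from -1.10 to 0.19 (adjusted p = 0.537, limma). The difference of LRP6 was negative in all 16 alternatives, from -0.65 to -0.19, and did not pass in any of them, the methods' t-test included. Its unadjusted p was 0.267.

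**Figure D3:**
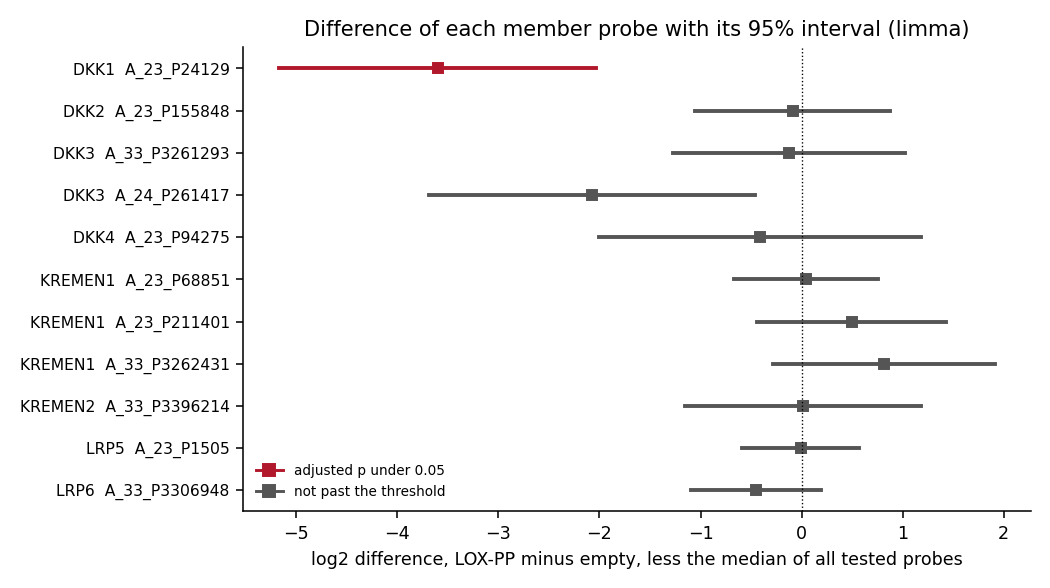
Log2 difference (A673/TR/LOX-PP minus A673/TR/empty, less the median of all tested probes) of each member probe, with squares for the estimate and lines for the 95% interval from limma. The interval of DKK1, from -5.17 to -2.03, lies apart from 0 and is marked red as past the threshold. It rests on 3 LOX-PP values that were not detected, so that it does not measure the size of the difference. That of the DKK3 probe A_24_P261417, from -3.69 to -0.46, also lies below 0 but did not pass after adjustment, and the other 9 cross 0.

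All 8 genes passed the filter on dim probes, DKK1 through the controls alone, and 1 of the 8 (12.5%) passed the threshold by its brightest probe, compared with 7.07% of the 16601 genes tested. By probes it was 1 of 11 (9.09%), against 5.66% of all tested probes, of which 2.36% were lower and 3.31% higher. The groups did not overlap for 2 of the 11 probes (18.2%), against 29.5% of all probes. With a single gene behind the first 2 shares, they are no result about the family. The median difference of the 8 genes was -0.11, beside -0.093 for all named genes.

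The members lie on 7 chromosomes, with DKK3 and LRP5 both on chromosome 11. The genes of chromosome 10, where DKK1 lies, had a median difference of -0.20 (627 genes). Of the 5 tested genes on each side of DKK1, in RefSeq order, 5 of 10 were lower than the median of all probes, from -1.07 (SGMS1) to 0.63 (FAM21EP). None of the 10 passed in limma (smallest adjusted p = 0.0700) or in the methods' t-test, and 3 had an unadjusted p under 0.05, beside 23.7% of all named genes.

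The 5 named genes whose 6 values followed those of DKK1 most closely, among 16564 genes compared, were ITGB5, DTD2, DCBLD2, NCOA7 and LMNB1, with Pearson's r between 0.996 and 0.997. ITGB5 encodes an integrin chain and LMNB1 the nuclear lamina protein lamin B1. Under quantile normalization r was between 0.958 and 0.977 for the 5, and with normexp between 0.964 and 0.975. These figures describe 6 arrays that share the contrast between the lines, and 3 of the DKK1 values are under the detection level. An r over 0.9 was reached by 7.70% of all genes compared. All 5 were detected on every array and were lower by less than DKK1, from -1.42 for NCOA7 to -0.93 for DTD2, and NCOA7 alone passed the threshold (adjusted p = 0.0478, limma).

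In the rest of the pathway, 3 of the calls were other secreted antagonists, 1 higher and 2 lower. Of the further pathway genes, in 7 lists, 87 had a tested probe and 8 passed (4 higher, 4 lower), that is 9.20%, beside 7.07% of all genes. Their median difference was -0.13, beside -0.093 for all named genes, of which 56.5% lay below the median of all probes and 23.7% had an unadjusted p under 0.05. These lists and their counts are descriptive, and a list was not compared with others by a test.

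Of the 13 secreted antagonists, 9 were tested and 3 passed (33.3%, beside 7.07% of all genes). FRZB, a Frizzled-related protein that binds Wnt ligands, read 1.09, 1.20 and 0.85 in A673/TR/empty and -2.99, -3.54 and -4.02 in A673/TR/LOX-PP. All controls stood far above all LOX-PP arrays, of which 2 were detected, and the difference was -4.69 ± 0.31 (SE, n = 3 per group, adjusted p = 0.000905, limma). It passed in all 15 alternatives in which it was tested. SFRP1, of the same family, moved the other way. It read -5.74, -6.53 and -5.79 in A673/TR/empty, where 1 array was detected, and -3.39, -3.38 and -3.68 in A673/TR/LOX-PP, where all were. The rise of 2.41 ± 0.28 (SE, n = 3 per group, adjusted p = 0.00496, limma) passed in 14 of 15 alternatives and was lost over a common floor, where it was 0.15 (adjusted p = 0.310, limma). CER1, which encodes the Wnt, BMP and Nodal antagonist cerberus, differed by -2.09 ± 0.35 (SE, n = 3 per group, adjusted p = 0.0250, limma) and was lower, with 3 control and 2 LOX-PP arrays detected. The median of the 9 was 0.092.

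The other lists held at most 1 call each, from 0% to 16.7% of the genes tested, beside 7.07% of all genes. In the R-spondin, LGR and ubiquitin ligase group, which sets the amount of Wnt receptor at the surface, RSPO2 changed by -2.86 ± 0.57 (SE, n = 3 per group, adjusted p = 0.0419, limma), 1 of 6 tested, with 1 LOX-PP array detected. Of 14 further LDL receptor family genes and chaperones, SORL1 rose by 0.97 ± 0.24 (SE, n = 3 per group, adjusted p = 0.0462, limma). In this list 10 (71.4%) were lower than the median of all probes, beside 56.5% of all named genes. The chaperone of LRP5 and LRP6, MESD, differed by -0.79 without passing (adjusted p = 0.125, limma). Among the 30 genes that carry the signal from LRP5/6 to beta-catenin, FRAT1, which binds and inhibits GSK3, rose by 1.98 ± 0.38 (SE, n = 3 per group, adjusted p = 0.0258, limma), with 1.63 for its dimmer probe (adjusted p = 0.0611, limma). The brighter FRAT1 probe was detected on 2 control and 3 LOX-PP arrays. CTNNB1, beta-catenin itself, differed by 0.50 and 0.72 on its 2 probes (adjusted p = 0.213 and 0.107, limma). Of 19 Wnt ligands 10 were tested, and 1 of these lay below the median of all probes, beside 56.5% of all named genes, and 9 above it. Of the tested ligands WNT1, WNT5B, WNT9B and WNT11 were not detected on every array. Only WNT6 passed, with 2.09 ± 0.43 (SE, n = 3 per group, adjusted p = 0.0322, limma). Of 14 Frizzled and other receptors, FZD3 fell by 1.27 on the log2 scale (SE 0.23, n = 3 per group, adjusted p = 0.0381, limma), and CKAP4, a further receptor of DKK1, differed by -0.47 (adjusted p = 0.464, limma).

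None of the 10 tested beta-catenin feedback targets passed, in limma or in the methods' t-test, and 3 had an unadjusted p under 0.05, beside 23.7% of all named genes. The TCF/LEF factor LEF1 had the smallest p, with 0.30, 0.55 and 1.80 in A673/TR/empty against -0.69, -1.06 and -0.50 in A673/TR/LOX-PP, a difference of -1.76 (adjusted p = 0.0760, limma) with groups that did not overlap. NKD2, which inhibits the Wnt transducer Dishevelled, differed by -0.86 (adjusted p = 0.139, limma). AXIN2, a scaffold of the complex that degrades beta-catenin and a common readout of the pathway, had 2 probes of opposite sign, with -0.40 for the brighter (adjusted p = 0.709, limma) and 0.38 for the other (adjusted p = 0.346, limma), both detected on every array. The 10 targets had a median of -0.41 and 8 lay below the median of all probes, beside 56.5% of all named genes.

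**Figure D4:**
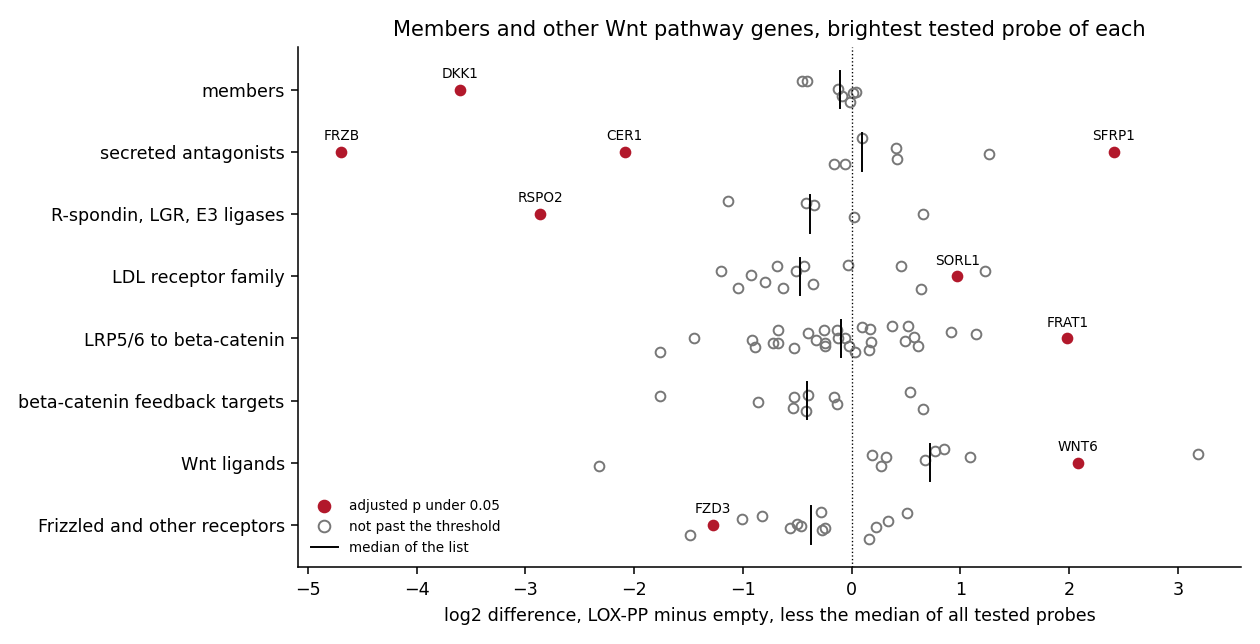
Log2 difference (A673/TR/LOX-PP minus A673/TR/empty, less the median of all tested probes) of the brightest tested probe of each gene, for the 8 members and 7 lists of other Wnt pathway genes. Red points passed the threshold and are named, open points did not, vertical bars are list medians and vertical scatter carries no value. The points of DKK1 (-3.60) and SFRP1 (2.41) rest on values below detection, on 3 LOX-PP and 2 control arrays, so that their place among the others is not set. RSPO2 was detected on 1 LOX-PP array, FRZB and CER1 on 2 LOX-PP arrays and FRAT1 on 2 control arrays. These points also rest partly on undetected values. WNT10A, open at 3.19, did not pass (adjusted p = 0.0632, limma).

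These calls depended on single arrays. The number of pathway genes past the threshold was 2 without replicate 1 or without replicate 2 of A673/TR/empty and 6 without their replicate 3, and 6, 4 and 5 without replicates 1, 2 and 3 of A673/TR/LOX-PP. FRZB and SFRP1 passed whichever array was left out, and SORL1 was lost without any 1 of the 6. Over all alternatives in which each was tested, the call was lost in 10 of 16 for SORL1, 9 of 15 for FRAT1, 8 of 15 for RSPO2, 8 of 16 for FZD3 and 7 of 16 for WNT6. CER1 lost it in 7 of 15, quantile normalization among them (adjusted p = 0.0580, limma). Some markers of another cell type also differed between the lines, but not in 1 direction. Of 8 tested fibroblast markers 3 passed, beside 7.07% of all genes. COL1A2 with a difference of -3.04 and LUM with -2.42 were lower, and FAP with 3.52 was higher. Of the 8, 6 lay below the median of all probes, beside 56.5% of all named genes. The summed linear signal of the 9 on the array was between 83.6 and 85.2 times the 75th percentile in A673/TR/empty and between 46.7 and 72.0 in A673/TR/LOX-PP. COL1A2 averaged 5.16 in A673/TR/empty and 2.25 in A673/TR/LOX-PP, so that this sum follows a single bright gene to a large degree. THY1, equally bright in the controls, differed by -0.038 and COL1A1 by 0.53, and neither passed. LUM was detected on 2 control arrays and 1 LOX-PP array, and PDGFRA on 1 array of each line. Of 5 tested epithelial markers CLDN4 passed, with 2.08, and CDH1 was not detected on any array, with a summed epithelial signal of 58.0 to 59.5 and 46.3 to 69.4. Of 5 leukocyte and 4 endothelial markers tested none passed in limma or in the methods' t-test, and TEK was not detected on any array. An unadjusted p under 0.05 was found for 2 of the endothelial ones, beside 23.7% of all named genes. The summed marker signal was 0.809 to 1.13 and 0.882 to 1.57 for leukocytes. For endothelial cells it was 0.299 to 0.355 and 0.380 to 0.677, both in the same order of lines. Of the Ewing sarcoma markers PAX7 passed, with -2.05. The part of these differences in the results above was not tested.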

How the data were processed

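Total RNA was measured on 6 Agilent SurePrint G3 arrays in 1 colour. The authors deposited, per the file headers, the intensity of every spot as written by Agilent Feature Extraction (version 10.7, per the labels), already corrected for background, with detection flags, and a table of processed log2 values. Where both held values, the deposited log2 values differed from those computed here by at most 0.0038 once each probe was centred, so that scale and direction are the same. Their array medians were -0.117, -0.343 and 0.150 for A673/TR/empty and -0.228, 0.417 and 0.133 for A673/TR/LOX-PP. Control and outlier spots were dropped, replicate spots were averaged as log2 intensity, and each array was scaled to its own 75th percentile. Probes detected on at least 3 of 6 arrays (32647 of 50599) entered 1 limma fit with no block (limma 3.58.1, R 4.3.3), with Benjamini-Hochberg adjustment at 0.05, and only the members and the pathway genes are printed. P values measure the spread between 3 cultures a group, and their number limits the precision.

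Probes were named through RefSeq accessions (28174 of 50599). A gene is given by its brightest tested probe, and the members by all probes. For a probe not detected on any array of a group, each array's faintest detected signal, or the probe's own value if higher, gave the approximate bound. Named genes are the members, up to 4 called genes of each pathway list (or those with the smallest p) and the 5 most like DKK1; other values were chosen after they were seen (SGMS1, FAM21EP, MESD, CTNNB1, CKAP4, AXIN2, WNT10A and the cell type markers that passed). Members and lists were chosen with earlier results of these data known. The steps were tested on simulated data. Whether replicate numbers pair the cultures is not given, and the main fit did not use them. Alternatives were quantile normalization, another centring, the authors' values, 2 filters, normexp on the median spot intensity (offset 50), a common floor, slide and replicate blocks, the methods' t-test and leaving out each array. For the pathway genes, all but quantile normalization of their count were added after seeing the data.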

Additional observations from a re-analysis of the deposited data

How the results depend on the processing

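All 1849 probes past the threshold became 516 with no filter on dim probes, 860 with the replicate block, 569 in the methods' t-test and 407 to 2062 when 1 array was left out. The labels do not say whether same-numbered arrays were paired. Their deviations from the group means correlated at 0.27, -0.39 and 0.23. With 3 arrays per group these values are tied to one another and cannot settle it. Of the 8 members, 1 passed, and 0 passed with the filter that asks for all 6 arrays (which leaves DKK1 untested), with no filter, normexp, the common floor, the replicate block or the methods' t-test, and 0 to 1 when 1 array was left out. DKK1 did not pass with no filter (-3.78), normexp (-2.16), the common floor (-1.83), the replicate block (-3.60, adjusted p = 0.0525, limma) or the methods' t-test (-3.60), and ran from -4.11 to -2.96 when 1 array was left out. The common floor, the highest of the 6 arrays' faintest detected signals, lifts the 3 undetected values to 1 level, which shortens the difference by construction. With no filter the values of DKK1 itself were unchanged, and the median taken off was 0.30 in place of 0.13. For the remaining settings the cause was not tested. The 8 pathway genes became 2 with no filter, 3 with the replicate block, 2 in the methods' t-test and 2 to 6 when 1 array was left out.

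Each setting takes off its own median, 0.13 in the main fit, 0.30 with no filter, 0.069 with the filter for all 6 arrays and 0.062 over the floor. With no filter the signs of KREMEN1 (A_23_P68851) and KREMEN2 turned through this median alone, as their own values were unchanged. The same holds for LRP5 with the filter for all 6 arrays and over the floor. Members that did not pass changed sign as follows. DKK2 was 0.20 under quantile normalization and 0.21 with the slide block, which amounts to leaving out replicate 1 of A673/TR/LOX-PP, and -0.37 to 0.21 when 1 array was left out. DKK3 (A_33_P3261293) was 0.059 with normexp, 0.19 over the floor, 0.23 with the slide block and -0.59 to 0.23 without single arrays. DKK4 was 0.041, 0.36 and -0.97 to 0.36 over the floor, with the slide block and without single arrays. With no filter, with normexp and without single arrays, KREMEN1 (A_23_P68851) was -0.14, -0.062 and -0.24 to 0.23, and KREMEN2 -0.16, -0.070 and -0.37 to 0.39. LRP5 was 0.24 under quantile normalization, 0.046 with the filter for all 6 arrays, 0.054 over the floor and -0.14 to 0.14 without single arrays. LRP6, the other KREMEN1 probes and the other DKK3 probe kept their sign in every alternative run.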
